A study of Mus musculus with 12 samples.

Results

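Mouse morulae that had received an siRNA against Tdgf1 as zygotes were compared with morulae that had received a negative control siRNA. The comparison covers 4 of the 12 RNA-seq libraries of a study that also took both treatments to the early and the late blastocyst. It is described across the 10318 of 43472 listed genes whose mean level over the 4 morula libraries was at least 3.582 CPM (reads of a gene per 1000000 reads of its library). The Tdgf1 siRNA group was CD1 embryos, an outbred stock, at the morula stage after injection of Tdgf1 siRNA into the zygote (2 libraries), and the control group was CD1 morulae after injection of a negative control siRNA (2 libraries). Every embryo of both groups also received GFP mRNA with the siRNA, as a mark of successful injection, and both siRNAs came from GenePharma. No uninjected embryos were analysed here, and the sources used here do not say how many embryos a library holds. The labels number the libraries 1 and 2 in each group, and libraries of the same number are called pair 1 and pair 2. Nothing in the labels says whether the libraries of a group came from separate injections, and a p-value here therefore reflects no more than the spread between the given libraries, part or all of which may be technical. Less RNA per cell and fewer cells of a type cannot be told apart in such bulk libraries.

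Tdgf1 encodes Cripto, a small protein tethered to the cell surface that serves as a co-receptor. Nodal and related ligands bind an activin receptor complex through Cripto, the receptors phosphorylate Smad2 and Smad3, and these enter the nucleus with Smad4 to act with partners such as Foxh1. In the morula the outer and inner cells begin to differ, and the outer cells go on to form the trophectoderm, the pumping epithelium of the blastocyst.

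Depth was similar in all 4 libraries, at 10926069 to 11590032 reads with Tdgf1 siRNA and 10524640 to 10716445 reads with control siRNA. A gene with 0 reads could at this depth be as high as 3 reads, or 0.259 to 0.285 CPM, allowing for counting error only. The embryo markers Pou5f1, Nanog, Cdx2, Gata6, Tead4, Cdh1 and Dppa3 were present in every library. Of 11 cumulus and granulosa cell markers, 7 were at 0 in all 4 libraries, and the sum of the 11 was 29.3 and 38.7 CPM in Tdgf1 siRNA morulae against 41.5 and 34.5 CPM in control morulae. Most of it came from the 2 that passed the filter, Amhr2 and Serpine2. Amhr2 was at 16.2 and 13.4 CPM in Tdgf1 siRNA morulae against 23.2 and 17.4 CPM in control morulae, without overlap. Serpine2 was at 12.9 and 25.3 CPM against 18.3 and 17.1 CPM in control morulae, with overlap. Of 9 oviduct, uterus and blood cell markers 0 passed the filter, with sums of 7.59 and 5.49 CPM in Tdgf1 siRNA morulae against 2.43 and 3.33 CPM in control morulae. In a wider list of 19 such genes 3 passed the filter (Pecam1, Wfdc2 and Cd74), 1 was higher in both pairs and 2 lower in both, and the sums were 32.9 and 44.4 CPM in Tdgf1 siRNA morulae against 34.3 and 51.4 CPM in control morulae. Pecam1, a junction protein listed here for endothelium and blood cells, was at 11.2 and 12.4 CPM in Tdgf1 siRNA morulae against 16 and 16.8 CPM in control morulae (log2 difference -0.38, SE 0.22, unadjusted p = 0.114). Whether the Pecam1 RNA came from such cells or from the embryo was not tested. Of 5 markers of the 2-cell stage 0 passed the filter, with sums of 12.6 and 0.549 CPM in Tdgf1 siRNA morulae against 3.45 and 1.05 CPM in control morulae, and Tdpoz4 gave 11 of the 12.6 CPM. In a wider list of 2-cell stage transcripts 13 of the 34 genes found passed the filter, 5 were higher in both pairs and 2 lower in both, 3 had higher and 0 lower groups without overlap, and 0 passed the test. Of all genes, 28.5% were higher and 24.6% lower in both pairs. Groups without overlap occurred in 15.4% of all genes upward and 11.9% downward. The sums of that list were 4910 and 5356 CPM in Tdgf1 siRNA morulae against 4723 and 4651 CPM in control morulae. Trim43a, whose near-identical copies may share reads, was at 1378 and 1728 CPM in Tdgf1 siRNA morulae against 1148 and 1133 CPM in control morulae (log2 difference 0.44, SE 0.20), and the predicted gene Gm5662 was at 8.97 and 18.1 CPM against 4.11 and 7.98 CPM in control morulae (0.81, SE 0.32, unadjusted p = 0.0251). The Gm5662 difference was 0.41 without Tdgf1 siRNA replicate 2 and 0.51 without control replicate 1.

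Tdgf1 RNA was present in all 4 libraries and lower in both Tdgf1 siRNA libraries. Its level was 15.5 and 11 CPM (180 and 120 reads) in Tdgf1 siRNA morulae, against 29.4 and 23.4 CPM (315 and 246 reads) in control morulae. The groups did not overlap, and the level stood at 52.8% of control in pair 1 and 47.0% in pair 2. The difference was -0.84 on the log2 scale (SE 0.27), -0.79 in pair 1 and -0.89 in pair 2. Tdgf1 did not pass limma over all genes (adjusted p = 0.9998, unadjusted p = 0.00896), nor with the pairs as a block (adjusted p = 0.509). Only when the 4 morula libraries were fitted alone with the block, which leaves 1 residual degree of freedom, was the adjusted p of limma 0.0135. An exact two-sided permutation over the 4 libraries gave p = 0.333, the smallest that its 6 assignments allow. The gene lies at chr9:110939603-110946158 on the minus strand (mm10). Its near-copy Tdgf1-ps1 was at 0.173 and 0.458 CPM in Tdgf1 siRNA morulae against 0.933 and 0.665 CPM in control morulae.

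**Figure D1:**
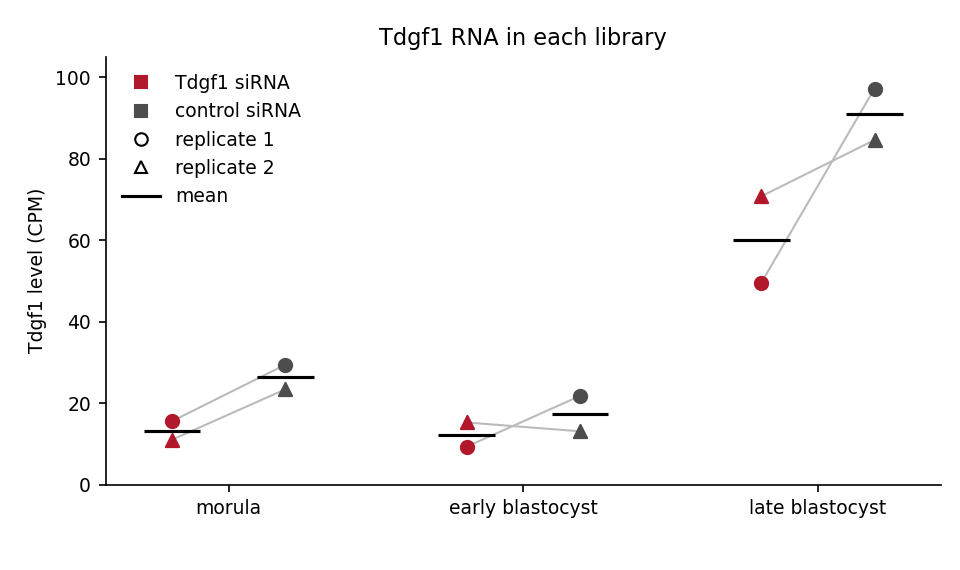
Tdgf1 level in CPM (vertical axis) in each library at the 3 stages, with Tdgf1 siRNA to the left of control siRNA. Points are libraries, grey lines join same-numbered libraries and black bars are means. At the morula stage both Tdgf1 siRNA libraries (15.5 and 11 CPM) sit below both control libraries (29.4 and 23.4 CPM), whereas pair 2 of the early blastocyst runs the other way.

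Tdgf1 was also read at the later stages. In early blastocysts Tdgf1 was at 9.27 and 15.2 CPM with Tdgf1 siRNA and at 21.7 and 13.1 CPM with control siRNA, and these groups overlapped. In late blastocysts it was at 49.5 and 70.8 CPM with Tdgf1 siRNA and at 97.3 and 84.6 CPM with control siRNA, with no overlap. The morula difference minus the mean of the blastocyst differences was -0.34 on the log2 scale (SE 0.34, limma adjusted p = 0.9999), so a larger difference in morulae was not detected.

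Few genes passed a test between the morula groups. In the fit by group, 0 of 10318 genes (0%) passed limma at an adjusted p of 0.05, and 0 passed edgeR or DESeq2 on the reads. At an unadjusted p of 0.05, limma put 124 genes higher (1.2%) and 84 genes lower (0.814%) in Tdgf1 siRNA morulae, while edgeR counted 237 and DESeq2 246 in either direction. Each of these counts is below 0.05 of the 10318 genes, the share that this threshold passes when nothing differs. The spread in these fits includes that between library numbers, so a count below this share does not show that nothing differs. Levels did not overlap between the groups for 1584 higher (15.4%) and 1231 lower genes (11.9%). Of the 6 assignments of the libraries to groups, 1 gives such a split in each direction, so such genes are common without any effect. With the pairs as a block, 5 genes rose (0.0485%) and 0 fell (0%) at an adjusted p of 0.05 in limma. In that fit 404 higher (3.92%) and 280 lower genes (2.71%) had an unadjusted p under 0.05. Together these unadjusted counts are above 0.05 of the 10318 genes.

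Libraries of the same number were more alike than libraries of the same siRNA. The SD over genes of the log2 difference was 0.289 in pair 1 and 0.305 in pair 2. It was 0.385 between the Tdgf1 siRNA libraries and 0.396 between the control libraries, and 0.414 and 0.386 between Tdgf1 siRNA and control libraries of different number. Genes past 2-fold made up 0.446% and 0.611% of genes within the pairs, against 2.02% and 1.90% between libraries of the same siRNA. The labels do not say what the number stands for.

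The differences of the 2 pairs were only weakly related. The 2 pair differences correlated at r = 0.0906 (Spearman's rho 0.0914) over 10318 genes, which are not independent replicates. Of all genes, 2944 were higher in both pairs (28.5%) and 2542 lower in both (24.6%). A total of 46 genes passed 2-fold in pair 1 and 63 in pair 2. Of these, 1 was higher in both pairs (0.00969%), 1 was lower in both (0.00969%) and 3 went in opposite ways.

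**Figure D2:**
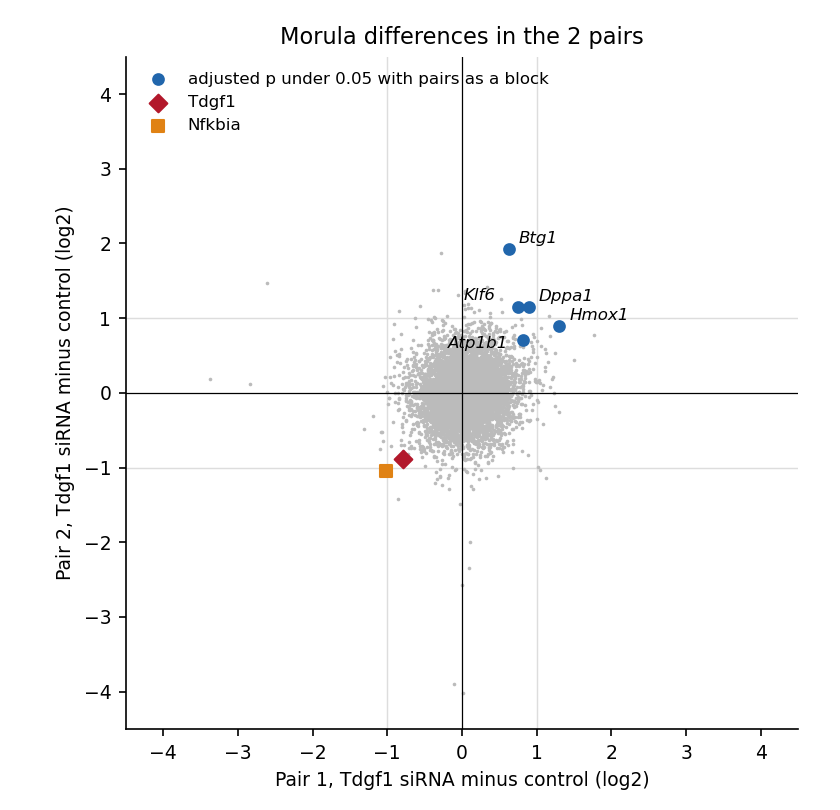
Log2 difference, Tdgf1 siRNA minus control, of each of 10318 genes in pair 1 (horizontal axis) and pair 2 (vertical axis). Grey points are genes and grey lines mark 2-fold. The cloud has only a weak diagonal trend (r = 0.0906), and the 5 genes that passed with the pairs as a block, together with Tdgf1 and Nfkbia, lie at its edge.

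The gene that was 2-fold lower in both pairs was Nfkbia, which encodes the inhibitor that holds NF-kappaB in the cytoplasm. Nfkbia was at 5.18 and 5.22 CPM in Tdgf1 siRNA morulae, against 14.1 and 14.6 CPM in control morulae. Replicates lay close together and the groups were far apart, at 36.7% of control in pair 1 and 35.7% in pair 2. The difference was -1.03 on the log2 scale (SE 0.21), with the lowest unadjusted p among the named lower genes (limma, 0.00028). It missed the threshold after adjustment by group (adjusted p = 0.9998) and with the block (adjusted p = 0.152). In early blastocysts Nfkbia stood at 6.56 and 6.81 CPM with Tdgf1 siRNA against 8.35 and 8.21 CPM with control siRNA, and in late blastocysts at 8.38 and 5.74 CPM against 9.63 and 8.95 CPM. Nfkbia was thus also lower with Tdgf1 siRNA in both pairs of each blastocyst stage. The smaller differences there are favoured by the choice of Nfkbia for its morula values. Its difference between stages did not pass limma (adjusted p = 0.9999). The gene that was 2-fold higher in both pairs, the unnamed feature 1190002N15Rik, was at 5.95 and 6.59 CPM in Tdgf1 siRNA morulae against 0.653 and 1.43 CPM in control morulae (log2 difference 1.10, SE 0.31), and missed the threshold in limma with the block (adjusted p = 0.110). It was chosen for mention after its values were seen.

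The 5 genes that rose with the pairs as a block were Dppa1, Klf6, Hmox1, Atp1b1 and Btg1. Each had a limma adjusted p of 0.0424 with the block and of 0.9998 without it. Klf6, a zinc finger transcription factor of the Krüppel-like family, was at 45.2 and 40.2 CPM in Tdgf1 siRNA morulae against 25.4 and 16.1 CPM in control morulae. Its groups did not overlap, and its log2 difference was 0.95 (SE 0.16 with the block). Btg1, an antiproliferative protein that is induced as cells leave the cycle, was at 112.5 and 92.6 CPM in Tdgf1 siRNA morulae against 71.8 and 21.9 CPM in control morulae (log2 difference 1.27, SE 0.22). Control replicate 2 stood apart from the other 3 libraries for Btg1, so its 2 pair differences, 0.62 and 1.92, were unequal.

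Hmox1, which encodes heme oxygenase-1, an enzyme that breaks down heme and is induced by oxidative stress, was at 54.1 and 21.3 CPM in Tdgf1 siRNA morulae against 19.8 and 9.79 CPM in control morulae (log2 difference 1.10, SE 0.18). Its lower Tdgf1 siRNA library barely exceeded its higher control library, and the 2 are from different pairs. Atp1b1, the beta subunit of the sodium pump that drives fluid into the blastocyst cavity, was at 41.6 and 42.7 CPM in Tdgf1 siRNA morulae against 22.0 and 24.7 CPM in control morulae (log2 difference 0.77, SE 0.13). Both its groups were tight and well apart. Dppa1 was at 17.8 and 30.5 CPM in Tdgf1 siRNA morulae against 7.93 and 11.8 CPM in control morulae (log2 difference 1.02, SE 0.16). Its level was far higher at the later stages, where the groups overlapped: 213 and 166 CPM with Tdgf1 siRNA against 331 and 145 CPM with control siRNA in early blastocysts, and 1092 and 1506 CPM against 1378 and 1427 CPM in late blastocysts.

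These calls were close to the threshold. With the block, TMM scaling left 0 of the 5 genes past it (adjusted p 0.0522 to 0.0617) and so did quantile normalization (0.0809 to 0.109). Leaving out any library of pair 1 left Btg1 past the threshold (adjusted p at most 0.000266, from pair 2 alone) with the other 4 at 0.0549 to 0.41, and leaving out any library of pair 2 left 0 of the 5 (0.146 to 0.77).

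The promoters of Klf6, the transcription factor among these genes, and of Dppa1, which had the smallest p with the block, are shown from 250 bases before to 50 bases after the annotated start, 5′ to 3′ on the strand of the gene (RefSeq, GRCm38.p6). The Klf6 window is chr13:5861239-5861538 on the plus strand and the Dppa1 window chr11:46629225-46629524 on the minus strand. Capitals mark matches to 4 motifs, searched on both strands: AP-1 (TGANTCA), the core of the antioxidant response element (TGACNNNGC), TEAD (GGAATG) and the Smad-binding element (CAGAC).
Klf6 promoter: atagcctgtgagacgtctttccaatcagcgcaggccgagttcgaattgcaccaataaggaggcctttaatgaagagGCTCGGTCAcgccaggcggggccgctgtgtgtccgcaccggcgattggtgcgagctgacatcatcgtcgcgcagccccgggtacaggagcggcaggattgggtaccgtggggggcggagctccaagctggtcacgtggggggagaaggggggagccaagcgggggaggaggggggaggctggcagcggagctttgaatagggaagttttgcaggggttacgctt
Dppa1 promoter: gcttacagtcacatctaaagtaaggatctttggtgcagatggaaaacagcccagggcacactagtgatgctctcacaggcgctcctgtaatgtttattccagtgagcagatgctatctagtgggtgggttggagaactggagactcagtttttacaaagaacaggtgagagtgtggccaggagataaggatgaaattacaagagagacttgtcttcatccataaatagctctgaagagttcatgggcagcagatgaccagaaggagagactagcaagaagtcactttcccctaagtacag
The Klf6 window held 1 match, GCTCGGTCA, which reads as the antioxidant response core on the opposite strand and starts 174 bases before the annotated start. The Dppa1 window, and those of Atp1b1 and Btg1, held none of these letters. No promoter was available for Hmox1, so its sequence was not searched. Among 32851 promoters of the same length, 7.81% held the AP-1 letters, 12.4% the antioxidant response core, 14.7% the TEAD letters and 49.6% the Smad-binding letters.

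Beyond these, the 15 genes of lowest unadjusted p in each direction with groups that did not overlap are plotted by library. Among the higher genes, Tbc1d9, of a family of Rab GTPase regulators, was at 9.75 and 8.24 CPM in Tdgf1 siRNA morulae against 4.11 and 2.38 CPM in control morulae (log2 difference 0.89, SE 0.23). Mocs2, a subunit of the enzyme that makes molybdopterin, was at 36.3 and 30.8 CPM against 18.9 and 17.1 CPM in control morulae (0.78, SE 0.21). Poc1a, a centriole protein, was at 35.3 and 44.2 CPM in Tdgf1 siRNA morulae against 23.1 and 25 CPM in control morulae (0.64, SE 0.20). In these 3 genes the gap between the groups was wider than the spread within them, which the choice of genes favoured.

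Aen, an exonuclease induced by p53, was at 97.2 and 118.8 CPM in Tdgf1 siRNA morulae against 73.2 and 78.3 CPM in control morulae (log2 difference 0.49, SE 0.16). Cryab, a small heat shock protein, was at 61.9 and 52.2 CPM in Tdgf1 siRNA morulae against 44.1 and 31.2 CPM in control morulae (0.57, SE 0.19). Rgcc, a regulator of the cell cycle, was at 11.8 and 6.41 CPM in Tdgf1 siRNA morulae against 4.39 and 2.18 CPM in control morulae (0.87, SE 0.29). Rgcc was also higher in both pairs of early blastocysts (0.18 and 0.81) and of late blastocysts (0.86 and 0.64). The rest of the higher set was Mtr, Bglap3, Top1mt, Gipc2 and Csrnp3, with log2 differences of 0.85, 0.89, 0.78, 0.73 and 0.72, beside Dppa1, Klf6, Hmox1 and Btg1. Unadjusted limma p-values of the 15 were 0.00164 to 0.0115, and 6 unnamed features among these ranks were passed over.

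Among the lower genes, Nr4a2, an orphan nuclear receptor, was at 4.66 and 2.65 CPM in Tdgf1 siRNA morulae against 8.02 and 8.74 CPM in control morulae (log2 difference -0.74, SE 0.23). Nagk, the kinase that salvages N-acetylglucosamine, was at 31.1 and 32.8 CPM in Tdgf1 siRNA morulae against 44.7 and 48.6 CPM in control morulae (-0.50, SE 0.16). L3mbtl3, a reader of methylated lysines, was at 12.3 and 11.5 CPM in Tdgf1 siRNA morulae against 19.7 and 22.5 CPM in control morulae (-0.67, SE 0.22). Each of these again showed a gap between the groups wider than the spread within them, which the choice of genes again favoured.

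Fkbp11, a prolyl isomerase of the endoplasmic reticulum, was at 21.0 and 24.5 CPM in Tdgf1 siRNA morulae against 31.0 and 45.5 CPM in control morulae (log2 difference -0.65, SE 0.22). Rab31, a GTPase of vesicle transport, was at 6.38 and 6.22 CPM in Tdgf1 siRNA morulae against 13.5 and 12.3 CPM in control morulae (-0.74, SE 0.26). Alox12, a lipoxygenase, was at 7.85 and 14.3 CPM in Tdgf1 siRNA morulae against 24.7 and 21.5 CPM in control morulae (-0.90, SE 0.32). The others were Ankrd6, Prr19, Tmem229b, Zfp473, Sptb, Arl5b and Zbtb8a, with log2 differences of -0.77, -0.93, -0.70, -0.83, -0.72, -0.63 and -0.62, beside Nfkbia and Tdgf1. Unadjusted limma p-values of the 15 were 0.00028 to 0.0144; that of Tdgf1 was 0.00896.

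**Figure D3:**
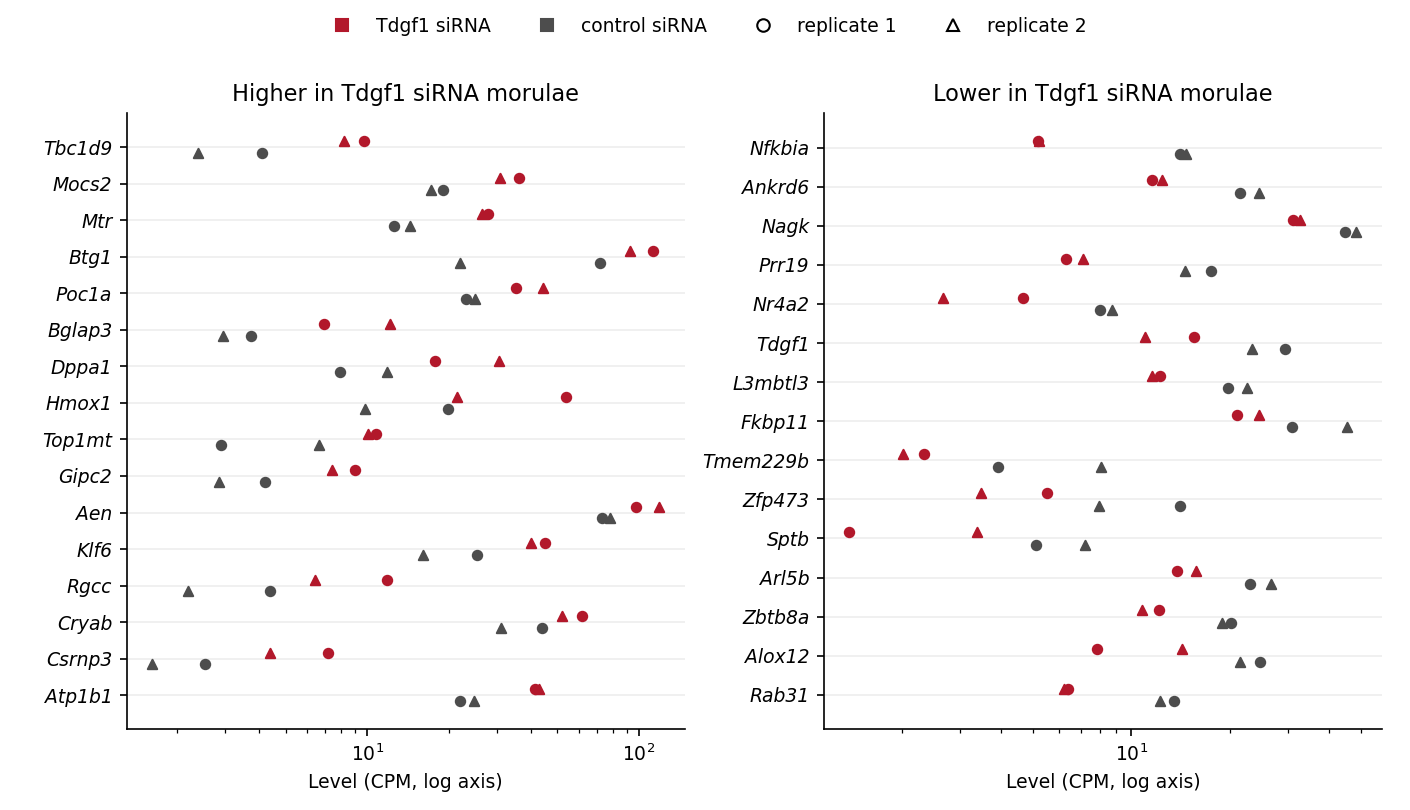
Level in CPM (log axis) of the genes of lowest unadjusted p that were higher (left) or lower (right) in Tdgf1 siRNA morulae, with Atp1b1 added on the left. Red points are Tdgf1 siRNA libraries, drawn above the dark control libraries, with circles for replicate 1 and triangles for replicate 2. In every row the red points lie on 1 side of the dark points, which the choice of genes required.

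The same genes were followed at the blastocyst stages. Of the 15 higher genes, 3 were above 0 in early and 7 in late blastocysts, where 50.3% and 54.8% of all genes were above 0. Of the 15 lower genes, 7 were above 0 at each of the later stages. Of the 5 genes that rose with the block, 2 were above 0 in early and 0 in late blastocysts: Btg1 and Atp1b1 had early blastocyst differences of 0.65 and 0.24 and late blastocyst differences of -0.06 and -0.26. The difference between stages passed limma for 0 genes (0%), with 125 at an unadjusted p under 0.05, and for 0 genes with the block (0%). Its lowest adjusted p among the 5 with the block was 0.0619, for Dppa1, and the stages are therefore not shown to differ for any gene.

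**Figure D4:**
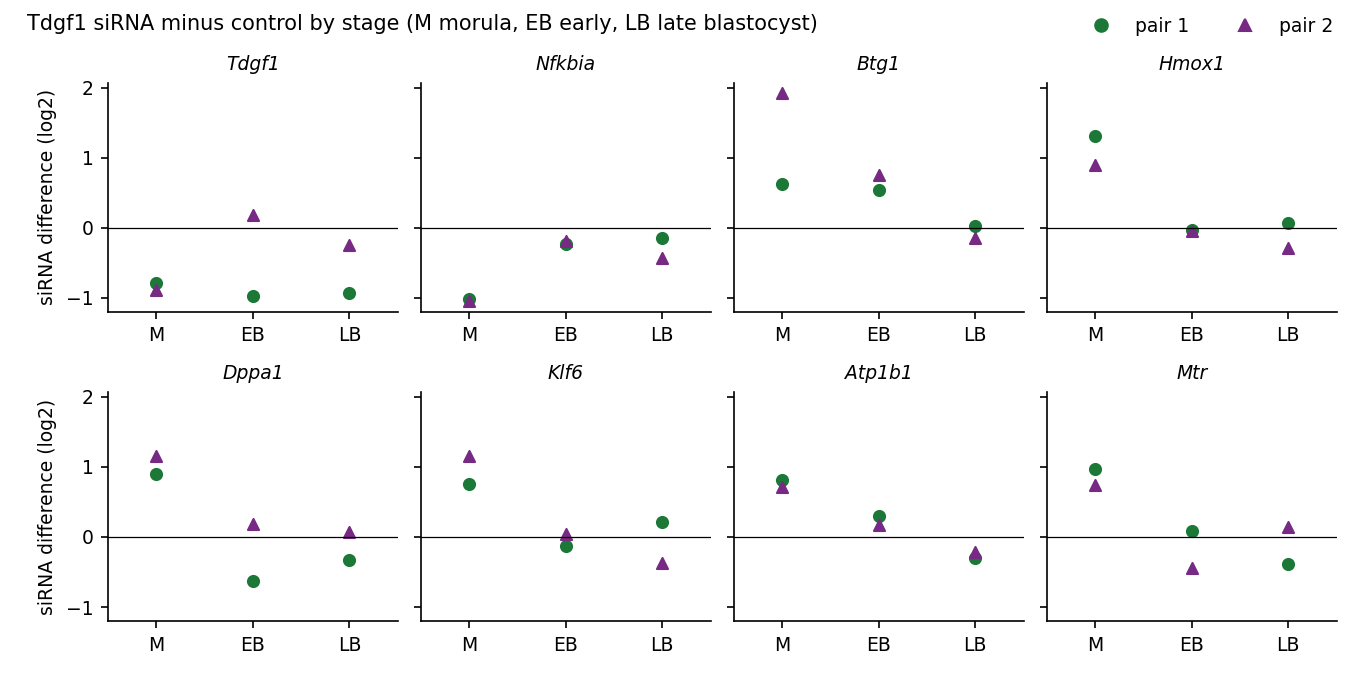
Log2 difference, Tdgf1 siRNA minus control (vertical axis), in pair 1 and pair 2 at the morula (M), early blastocyst (EB) and late blastocyst (LB) stages for 8 genes. At the morula stage both pairs lie on the same side of 0 for every gene shown, and most later points lie nearer to 0. Apart from Tdgf1, the genes shown were chosen for their morula values, which favours both patterns.

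In the Nodal and activin pathway, Tdgf1 was the only member with an unadjusted p under 0.05. Such a p with a lower level occurred in 0.814% of all genes in limma. Of 32 listed genes 16 passed the filter, with a median log2 difference of 0.03, beside 0.01 over all genes. Of the 16, 3 were higher in both pairs (18.75%, beside 28.5% of all genes) and 4 lower in both (25%, beside 24.6%). The ligand Nodal had 1 read in the 4 libraries together, in Tdgf1 siRNA replicate 2 (0 and 0.0915 CPM against 0 and 0 CPM in control morulae). Gdf3, a related ligand of the early embryo, was at 28 and 25.9 CPM in Tdgf1 siRNA morulae against 26.5 and 28.4 CPM in control morulae. The groups overlapped for Gdf3.

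The convertases that cleave the Nodal precursor were present: Pcsk6 was at 28.8 and 36 CPM in Tdgf1 siRNA morulae against 27.5 and 30.7 CPM in control morulae. Furin was at 5.95 and 5.49 CPM in Tdgf1 siRNA morulae against 3.83 and 4.37 CPM in control morulae (log2 difference 0.28, SE 0.29, unadjusted p = 0.357). Levels overlapped for Pcsk6 and not for Furin.

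Of the receptors, the type II chain Acvr2a was at 29.5 and 24.1 CPM in Tdgf1 siRNA morulae against 28.1 and 27.5 CPM in control morulae. Its relative Acvr2b was at 9.06 and 12.4 CPM in Tdgf1 siRNA morulae against 9.99 and 9.88 CPM in control morulae. The type I chain Acvr1b, on which Cripto acts, lay under the filter at 2.24 and 1.28 CPM in Tdgf1 siRNA morulae against 2.33 and 3.90 CPM in control morulae. Neither type II receptor separated the groups, and Acvr1b was lower in both Tdgf1 siRNA libraries at levels too low for the test.

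Downstream, Smad2 was at 55.5 and 52.4 CPM in Tdgf1 siRNA morulae against 69.6 and 60.4 CPM in control morulae (log2 difference -0.25, SE 0.17, unadjusted p = 0.158). Smad3 was at 11.5 and 4.49 CPM in Tdgf1 siRNA morulae against 6.44 and 3.61 CPM in control morulae, and Smad4 at 69.8 and 61.7 CPM against 70.1 and 71.2 CPM in control morulae. Smad2 did not overlap between the groups, and Smad3 followed the library number more than the siRNA. The nuclear partner Foxh1 was at 1.64 and 0.549 CPM in Tdgf1 siRNA morulae against 2.89 and 2.57 CPM in control morulae, under the filter. The target and inhibitor Lefty1 was at 0 in both Tdgf1 siRNA libraries against 0.560 and 0.475 CPM in control morulae, and Lefty2 was at 0 and 0.641 CPM against 0 in both. These targets lay under the filter and were not tested. The Lefty1 levels of control morulae lie above the limit that 0 reads allow in the Tdgf1 siRNA libraries (0.259 and 0.275 CPM). That limit leaves out the counting error of the control levels, which are a few reads at 0.0933 and 0.0950 CPM a read. A loss of Lefty1 is therefore not shown, and Lefty2 had reads only in Tdgf1 siRNA replicate 2.

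Of 10 other proteins listed as binding Cripto, 3 passed the filter and 0 passed the test. Notch1, a receptor of the Notch pathway, was at 13.2 and 7.32 CPM in Tdgf1 siRNA morulae against 5.79 and 5.42 CPM in control morulae (log2 difference 0.56, SE 0.31, unadjusted p = 0.0920). Lrp6, a Wnt co-receptor, was at 16.5 and 13.4 CPM in Tdgf1 siRNA morulae against 21.3 and 19.3 CPM in control morulae (-0.37, SE 0.23, unadjusted p = 0.129). Hspa5, the chaperone GRP78, was at 257.7 and 416.5 CPM in Tdgf1 siRNA morulae against 287.9 and 526.1 CPM in control morulae and followed the library number. Of 9 measured BMP pathway genes 0 passed the test. In both pairs 4 were higher (44.4%, beside 28.5% of all genes) and 3 lower (33.3%, beside 24.6%). Over all genes limma put 1.2% higher and 0.814% lower at an unadjusted p under 0.05. In the BMP list 2 genes had such a p, both lower. These were the receptor Bmpr2, at 33.2 and 23.0 CPM in Tdgf1 siRNA morulae against 38.7 and 40.7 CPM in control morulae (log2 difference -0.47, SE 0.21, and -0.23 without Tdgf1 siRNA replicate 2), and Smad1. The effector Smad1 was at 2.93 and 2.47 CPM in Tdgf1 siRNA morulae against 4.57 and 6.37 CPM in control morulae (-0.52, SE 0.22), while its relative Smad5 was at 4.66 and 6.04 CPM against 2.52 and 2.47 CPM in control morulae (0.55, SE 0.27). The unadjusted p was 0.0328 for Smad1 and 0.0614 for Smad5.

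Among the 27 gene lists with at least 8 measured members, the trophectoderm list had the highest median. Of its 28 genes 20 passed the filter, 1 (Dppa1) rose with the block, 12 were higher in both pairs (60.0%) and 2 lower in both (10%). Over all genes the shares were 0.0485% for the block, 28.5% for higher and 24.6% for lower in both pairs. Its median log2 difference was 0.30, beside 0.01 over all genes (0.29 and 0.23 in the pairs, beside 0.03 and 0.00). Anxa2, an annexin of epithelial membranes, was at 104.4 and 76.1 CPM in Tdgf1 siRNA morulae against 72.5 and 49.8 CPM in control morulae (log2 difference 0.54, SE 0.26, limma adjusted p = 0.313 with the block). Gata3, a transcription factor of the trophectoderm, was at 93.6 and 104.8 CPM in Tdgf1 siRNA morulae against 71.8 and 90.5 CPM in control morulae (0.29, SE 0.23). Both were separated between the groups by small gaps.

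Other trophectoderm genes were mixed. Lrp2, the endocytic receptor megalin, was at 402.6 and 387.4 CPM in Tdgf1 siRNA morulae against 352.6 and 249.98 CPM in control morulae, and the keratin Krt8 was at 271.5 and 238.6 CPM against 252.3 and 147.7 CPM in control morulae. Tfap2c, which with Tead4 and Gata3 acts early in the lineage, was lower in both pairs at 147.2 and 140.4 CPM in Tdgf1 siRNA morulae against 159.2 and 166.5 CPM in control morulae. Tead4 was at 94.0 and 105.8 CPM in Tdgf1 siRNA morulae against 87.6 and 87.6 CPM in control morulae. The list's median rested on the libraries: leaving out Tdgf1 siRNA replicate 1 gave 0.03, leaving out Tdgf1 siRNA replicate 2 gave 0.47 and leaving out control replicate 2 gave 0.16.

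Genes were also grouped by their course after the morula stage. In control embryos 1350 of these genes (13.1%) were higher and 1159 (11.2%) lower in late than in early blastocysts (limma, adjusted p of 0.05), a comparison that uses no morula library. Of the 1350, 34.1% were higher and 20% lower in both morula pairs, with a median log2 difference of 0.05. Of the 1159, 23.3% were higher and 30.9% lower in both pairs, with a median of -0.02. The part of developmental timing in the values of the trophectoderm list was not tested.

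The NRF2 antioxidant list came next. Of 31 genes 29 passed the filter, 1 (Hmox1) rose with the block (0.0485% of all genes), 16 were higher in both pairs (55.2%, beside 28.5% of all genes) and 4 lower in both (13.8%, beside 24.6%). The median was 0.20 (0.20 and 0.13 in the pairs). Fth1, the heavy chain of the iron store ferritin, was at 2502 and 2746 CPM in Tdgf1 siRNA morulae against 1916 and 2145 CPM in control morulae (log2 difference 0.37, SE 0.18, unadjusted p = 0.0579). Cat, catalase, was at 33.2 and 22.4 CPM in Tdgf1 siRNA morulae against 17.1 and 17.6 CPM in control morulae (0.56, SE 0.32). Gclm, a subunit of the enzyme that starts glutathione synthesis, was at 151.9 and 118.9 CPM in Tdgf1 siRNA morulae against 125.3 and 92.2 CPM in control morulae. G6pdx, which makes NADPH, was lower in both pairs at 22.8 and 17.8 CPM in Tdgf1 siRNA morulae against 26.7 and 24.8 CPM in control morulae. Fth1 and Cat did not overlap between the groups, whereas Gclm did. Leaving out Tdgf1 siRNA replicate 2 gave a median of 0.28 and leaving out control replicate 2 gave 0.10.

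Among immediate early genes 19 of 30 passed the filter, 2 (Klf6 and Btg1) rose with the block (0.0485% of all genes), 8 were higher in both pairs (42.1%, beside 28.5% of all genes) and 2 lower in both (10.5%, beside 24.6%). The median was 0.07 and the lowest member was at -0.36. Nr4a2 and Nfkbia, lower at -0.74 and -1.03, are not on the list, and its counts depend on its membership. Jun, a subunit of AP-1, was at 20.8 and 12.6 CPM in Tdgf1 siRNA morulae against 7.65 and 9.22 CPM in control morulae (log2 difference 0.73, SE 0.31, unadjusted p = 0.0347), and its difference was 0.44 without Tdgf1 siRNA replicate 1. Myc, a transcription factor of growth, was at 17.3 and 27.3 CPM in Tdgf1 siRNA morulae against 12 and 19 CPM in control morulae and overlapped between the groups. Zfp36, which destabilises inflammatory transcripts, was lower in both pairs at 13.9 and 8.88 CPM in Tdgf1 siRNA morulae against 16.9 and 14.0 CPM in control morulae. Members of the list thus stood on either side of 0.

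The unfolded protein response list had the lowest median, -0.15 (-0.16 and -0.08 in the pairs). All 31 genes found passed the filter, 0 passed the test, 7 were higher in both pairs (22.6%, beside 28.5% of all genes) and 14 lower in both (45.2%, beside 24.6%). Xbp1, a transcription factor of that response, was at 23.6 and 36.9 CPM in Tdgf1 siRNA morulae against 33.1 and 65.1 CPM in control morulae (log2 difference -0.60, SE 0.27, unadjusted p = 0.0421). The Xbp1 difference ranged from -1.05 without control replicate 1 to -0.15 without control replicate 2. Herpud1, a component of protein disposal from the endoplasmic reticulum, was at 7.85 and 5.22 CPM in Tdgf1 siRNA morulae against 8.86 and 12.3 CPM in control morulae (-0.49, SE 0.25). Sel1l, of the same disposal complex, was higher in both pairs at 38.0 and 37.7 CPM in Tdgf1 siRNA morulae against 31.4 and 29.6 CPM in control morulae. Xbp1 was lower in both pairs but overlapped between the groups, while Herpud1 and Sel1l did not. Without Tdgf1 siRNA replicate 1 the median was 0.03, and leaving out control replicate 2 gave -0.04.

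Some medians differed between the pairs. For p53 and its targets the median was 0.15 (0.00 in pair 1 and 0.43 in pair 2), and 0 of 29 measured genes passed the test. In both pairs 13 were higher (44.8%) and 2 lower (6.9%), and 9 higher and 2 lower groups did not overlap. For sterol synthesis the median was also 0.15 (-0.04 and 0.36), and 0 of 26 genes passed the test. In both pairs 10 were higher (38.5%) and 2 lower (7.69%), and 9 higher and 0 lower groups did not overlap. Of all genes, 28.5% were higher and 24.6% lower in both pairs, and 15.4% and 11.9% had groups without overlap. Without Tdgf1 siRNA replicate 2 the medians of the p53 and sterol lists were 0.01 and -0.01. Phlda3, a p53 target that inhibits Akt signalling, was an even exception at 29.7 and 29.3 CPM in Tdgf1 siRNA morulae against 21.0 and 20.4 CPM in control morulae (log2 difference 0.44, SE 0.21, unadjusted p = 0.0480).

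In the remaining lists of that size the median log2 difference lay between -0.13 and 0.09, and a single gene passed the test, Atp1b1 of the blastocoel list. In that list, of pumps, aquaporins and tight junctions, 4 of 19 measured genes were higher in both pairs and 6 lower in both. Cldn6, a claudin, was at 55.4 and 54.8 CPM in Tdgf1 siRNA morulae against 29.0 and 44.1 CPM in control morulae (log2 difference 0.57, SE 0.24), and the aquaporin Aqp3 was at 61.5 and 94.6 CPM against 96.5 and 126.2 CPM in control morulae (-0.51, SE 0.27). Neither passed limma with the block (adjusted p = 0.455 for Cldn6 and 0.595 for Aqp3), and groups without overlap, as in both, occurred in 15.4% of all genes upward and 11.9% downward. Of 48 genes of the G2 and M phases 5 were higher in both pairs (10.4%, beside 28.5% of all genes). Lower in both were 17 (35.4%, beside 24.6%). Groups without overlap were higher for 4 and lower for 11 of the 48. The median of the 48 was -0.04. Leaving out a library moved that median between -0.15 (control replicate 2) and 0.05 (control replicate 1). Of 24 epiblast and pluripotency genes 6 were higher in both pairs and 5 lower in both, with a median of -0.01. Klf17, an early embryonic member of the Krüppel-like family, was at 3.19 and 2.93 CPM in Tdgf1 siRNA morulae against 6.34 and 4.85 CPM in control morulae (-0.46, SE 0.20, unadjusted p = 0.0395). Of 14 primitive endoderm genes 5 were higher in both pairs and 2 lower in both, with a median of 0.01.

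**Figure D5:**
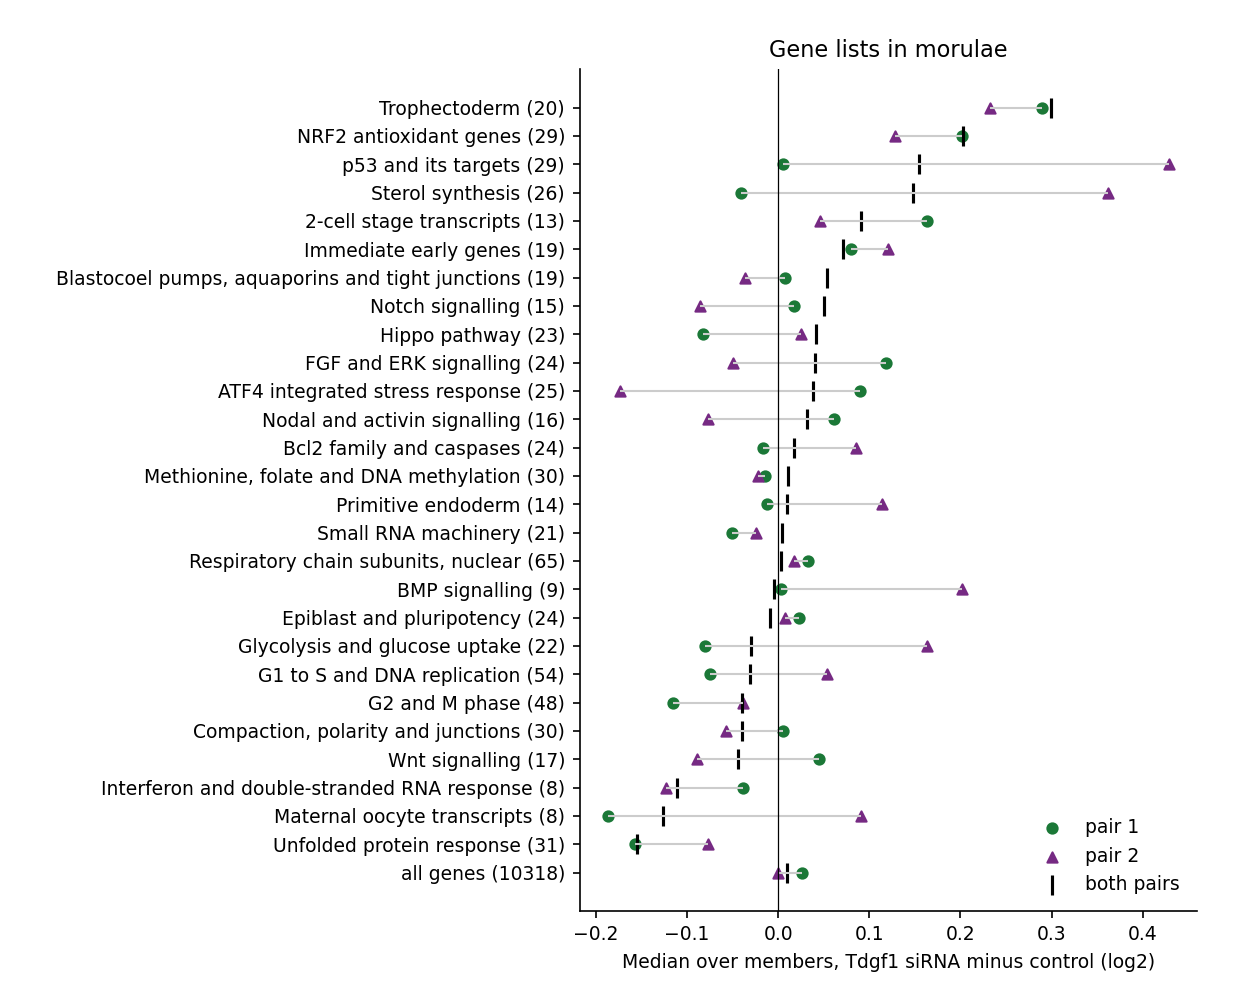
Median log2 difference, Tdgf1 siRNA minus control (horizontal axis), over the measured members of each gene list, with the number measured in brackets. Circles are pair 1, triangles pair 2 and black bars the median over members of the difference between the groups, which need not lie between the pair medians. The trophectoderm list lies highest at 0.30 and the unfolded protein response list lowest at -0.15. The medians of the p53 and sterol lists lie near 0 in pair 1 and higher in pair 2.

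Lineage regulators that passed the filter were followed whatever their p-value. No values are given here for Sox2, which was also chosen. Pou5f1, of the pluripotent cells, was at 293.4 and 265.4 CPM in Tdgf1 siRNA morulae against 233.4 and 261.4 CPM in control morulae. Nanog, of the epiblast, was at 286.2 and 403.4 CPM in Tdgf1 siRNA morulae against 348.8 and 560.4 CPM in control morulae, lower in both pairs with overlapping groups. Gata6, of the primitive endoderm, was at 391.9 and 456.4 CPM in Tdgf1 siRNA morulae against 377.6 and 432.8 CPM in control morulae. Cdx2, of the trophectoderm, was at 75.1 and 45.6 CPM in Tdgf1 siRNA morulae against 55.3 and 52.3 CPM in control morulae, higher in pair 1 and lower in pair 2. For these 4 the limma adjusted p with the block was 0.876, 0.595, 0.972 and 0.960 in that order. The adhesion protein Cdh1 and the Hippo effector Yap1 had log2 differences of 0.03 (SE 0.21) and -0.06 (SE 0.23), within the spread between replicates.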

How the data were processed

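RNA-seq was measured in 12 libraries of CD1 mouse embryos, made per the labels' protocols with the SMARTer Ultra Low Input and NEBNext Ultra kits. The submitters' processing notes name HISAT2 2.1.0, Cufflinks, HTSeq, edgeR and the build mm10 without saying what each was used for. The sources used here do not give strand, so a gene and an overlapping antisense partner cannot be told apart. The authors deposited 1 table headed RPKM per the file headers, but its values are CPM divided by a constant of 3.582: every column sums to 279173.646, and 100% of values are whole multiples of the same step for all genes (tolerance 0.01 reads). Levels here are CPM, and the whole reads gave the depth and the count tests. CPM are per library and not per length, so levels are compared between libraries and not between genes.

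Genes needed a mean of at least 1 deposited unit (3.582 CPM) over the morula libraries. Differences are on log2(value + 1) in deposited units, a pseudocount of 3.582 CPM, and understate changes of low genes. The test was limma 3.58.1 in R 4.3.3 (a linear model with trended, moderated variances, two-sided), with 12 libraries, 6 group means, 6 residual and 7.46 prior degrees of freedom and Benjamini-Hochberg adjustment over 10318 genes at 0.05. The difference between stages is the morula difference minus the mean of the blastocyst differences in the same fit. edgeR 4.0.16 and DESeq2 1.42.0 on the reads were alternatives. Tables and figures were made with pandas 2.3.3 and matplotlib 3.10.9 under Python 3.11.15. The scripts were tested on simulated data.

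Deviations from group means of same-numbered libraries correlated at 0.472 in morulae, 0.599 in early and 0.120 in late blastocysts. Each is above 0.1, and on that ground same-numbered libraries were treated as pairs, although no label ties them to a shared litter, day or injection. With these pairs as a block the fit kept 3 residual degrees of freedom (13.7 prior), and its values are given where it changed a call. Replicates of a group differed by more than sampling noise (chi-square per gene 23.4 and 25.9) and none was merged. Counts of 31 gene lists are given without a set test. Named genes were Tdgf1, every gene past the threshold in either fit, up to 5 genes a list by p, and a few further pathway members. They also include the 15 higher and 15 lower genes of lowest unadjusted limma p, without unnamed features. These came from genes with groups that did not overlap and the same sign in both pairs. Of 9 chosen lineage regulators, those that passed the filter were named. The genes, lists and tests were chosen with earlier results of these data known. Coordinates come from GENCODE M21 on GRCm38, in which 9790 of 10318 genes (94.9%) had 1 match. Gene names in the table include 27 turned into dates and 2 listed more than once, kept as they stand. All 37 mitochondrially encoded genes were listed at 0.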

Additional observations from a re-analysis of the deposited data

How the results depend on the processing

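The pairing by library number decided the count of genes called. The count was 0 by group and 5 with the replicate block (5 higher). It was 68 when the 4 morula libraries were fitted alone with the block (46 higher, 22 lower), where 1 residual degree of freedom remains and where Tdgf1 itself passed (log2 difference -0.84, adjusted p = 0.0135). With the block, and chosen after seeing the data, edgeR gave 5 (3 higher, 2 lower), DESeq2 gave 9 (9 higher), a pseudocount of 0.1 gave 5, and quantile normalization and TMM scaling gave 0. Among the 5 genes, Btg1 missed the threshold with edgeR and the block (adjusted p = 0.0985) and with a pseudocount of 0.1 (0.0588), Klf6 missed it with edgeR (0.0505), and all 5 passed with DESeq2. Leaving out each morula library gave 0 genes without the block and 3 to 7 with it. Without the block, the other settings gave 0 as well: the morula libraries alone, other pseudocount and filters, other scaling, edgeR and DESeq2. The Tdgf1 difference stayed below 0 in all 17 alternatives, at -1.03 to -0.64 when a library was left out. Genes past the fold limit in both pairs numbered 2, but 57 (39 higher, 18 lower) at a limit of 1.5-fold, 25 (17 higher, 8 lower) with a pseudocount of 0.1 and 0 with a filter of 5 deposited units, which removes both. The sign of small differences turned for a few named genes when a library was left out: Smad3 (-0.074 to 0.83), Hspa5 (-0.68 to 0.18), Cdx2 (-0.22 to 0.46), Gata6 (-0.045 to 0.17), Yap1 (-0.35 to 0.23), Cdh1 (-0.051 to 0.12), Acvr2a (-0.18 to 0.078), Acvr2b (-0.10 to 0.24), Gdf3 (-0.073 to 0.024), Pcsk6 (-0.011 to 0.28), Wfdc2 (-0.19 to 0.60) and Cd74 (-0.71 to 0.30). Likewise, the medians of 23 of 31 gene lists changed sign with 1 library or another left out, and 46 of 124 such medians moved by more than the SD of the pair medians. TMM scaling also turned Cdh1 (-0.0057). For the values that moved or turned, the cause was not tested. The block changed no other call among the named genes, lists or the difference between stages.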

Other observations

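In the ATF4 integrated stress response list, 25 of 33 genes passed the filter, 7 were higher in both pairs and 6 lower in both, and 0 passed the test. The shares of all genes were 28.5% higher and 24.6% lower in both pairs. Asns, asparagine synthetase, was at 37.4 and 27.9 CPM in Tdgf1 siRNA morulae against 20.2 and 24.1 CPM in control morulae (log2 difference 0.49, SE 0.20), and Phgdh, the entry enzyme of serine synthesis, was at 98.4 and 113.7 CPM against 77.3 and 93.7 CPM in control morulae (0.30, SE 0.16). Psph, which completes serine synthesis, was at 15.8 and 14.4 CPM in Tdgf1 siRNA morulae against 18.0 and 23.8 CPM in control morulae (-0.38, SE 0.20), and Trib3, an inhibitory target of the response, was at 4.49 and 4.94 CPM against 7.37 and 9.69 CPM in control morulae (-0.54, SE 0.30). Of the 25 genes, 3 had higher and 4 lower groups without overlap, which occurred in 15.4% and 11.9% of all genes.

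In glycolysis and glucose uptake, 6 of 22 measured genes were higher in both pairs and 6 lower in both. Ldhb, a lactate dehydrogenase subunit, was at 7.51 and 4.49 CPM in Tdgf1 siRNA morulae against 4.48 and 0.855 CPM in control morulae (log2 difference 0.66, SE 0.28). Slc2a1, a glucose transporter, was at 11 and 18.6 CPM in Tdgf1 siRNA morulae against 25 and 19.6 CPM in control morulae (-0.52, SE 0.32). Of 54 genes of G1 to S and DNA replication 10 were higher in both pairs and 16 lower in both. Rbl1, the pocket protein p107, was at 9.58 and 11.3 CPM in Tdgf1 siRNA morulae against 14.6 and 17 CPM in control morulae (-0.47, SE 0.22), and Slbp, which binds histone mRNA, was at 199.9 and 195.8 CPM against 228.2 and 258.5 CPM in control morulae (-0.29, SE 0.14).

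In the Hippo pathway 6 of 23 measured genes were higher in both pairs and 8 lower in both. Wwc2, of the Kibra family, was at 134.4 and 149.6 CPM in Tdgf1 siRNA morulae against 106.5 and 117.3 CPM in control morulae (log2 difference 0.33, SE 0.19), and the kinase Stk3 was at 16.6 and 18.6 CPM against 20.2 and 29.3 CPM in control morulae (-0.41, SE 0.21). In FGF and ERK signalling 7 of 24 measured genes were higher in both pairs and 6 lower in both. The feedback inhibitor Dusp4 was at 41.6 and 47.0 CPM in Tdgf1 siRNA morulae against 30.6 and 31.3 CPM in control morulae (0.47, SE 0.26), and Spry2, another, was at 9.32 and 10.3 CPM against 4.85 and 7.98 CPM in control morulae (0.44, SE 0.24). None of the genes named here passed limma with the pairs as a block, at adjusted p-values of 0.565 to 0.772.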
